A study of Mus musculus with 12 samples.

Results

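The 10 genes described here encode the acid and base handling machinery of the intercalated cell of the renal collecting duct. They are 5 subunits of the vacuolar proton pump (Atp6v1g3, Atp6v0d2, Atp6v1b1, Atp6v0a4 and Atp6v1c2), the anion exchangers Slc4a1 and Slc26a4, the transcription factor Foxi1, the ammonia channel Rhcg and carbonic anhydrase II (Car2). They were taken by gene symbol, and all 10 were found among the 27592 genes listed for males and the 26048 listed for females. RNA-seq of polyA RNA was performed on glomeruli isolated from mice in 4 groups. The series gives their age as 3.5 months, whereas the study's supplementary figure gives 4 months for the males. WT mice were C57BL/6J of either sex, male Alport syndrome (AS) mice were Col4a5-/- of the line B6.Cg-Col4a5tm1Yseg/J, and female AS mice were heterozygous, Col4a5+/-, of the same line. AS in this line is a disease of the glomerular basement membrane caused by loss of a collagen IV chain whose gene lies on the X chromosome, so heterozygous females carry a mosaic of affected and unaffected cells. The question was how the transcriptome of the glomerulus differed between AS and WT, and each AS group was compared with WT of its own sex.

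Intercalated cells are scattered between the principal cells of the connecting tubule and the collecting duct, and they secrete acid or base into the urine. Carbonic anhydrase II makes protons and bicarbonate in the cytoplasm. In type A cells the vacuolar ATPase pumps the protons into the lumen while the exchanger AE1, encoded by Slc4a1, returns bicarbonate to the blood. In type B cells pendrin, encoded by Slc26a4, secretes bicarbonate into the lumen. Foxi1 is the forkhead factor that specifies these cells in the mouse, and Rhcg carries ammonia across their membranes. None of these cells belongs to the glomerulus. The glomeruli had been isolated by collagenase digestion and sieving, so tubule of other segments can be carried over. In bulk samples, fewer cells of a type and less RNA per cell cannot be told apart.

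In the GENCODE M21 annotation of GRCm38, the proton pump genes lie at chr1:138273738-138289462 (Atp6v1g3), chr4:19876841-19922605 (Atp6v0d2), chr6:83742990-83758855 (Atp6v1b1), chr6:38048483-38124586 (Atp6v0a4) and chr12:17284721-17329359 (Atp6v1c2). Slc4a1 lies at chr11:102348824-102366203, Slc26a4 at chr12:31519827-31559969, Foxi1 at chr11:34204338-34208089, Rhcg at chr7:79593363-79617657 and Car2 at chr3:14886273-14900770. The values are per whole gene, over exons and untranslated regions alike. The span of Atp6v0a4 overlaps that of Tmem213 on the opposite strand and that of D630045J12Rik on the same strand, which cover 62 and 259 of its exon bases, and 50 exon bases of Atp6v1c2 lie within Pdia6 on the opposite strand. The library kit marked strand, but the strand setting of the counting is not given in the sources used here, so a small part of these reads cannot be assigned with certainty.

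Since the 10 genes moved together between libraries, as the values below show, and Foxi1 is a forkhead factor, the bases just before their transcription starts were searched for forkhead core words. RefSeq promoter windows on GRCm38.p6 were matched for 7 of the 10 genes (not Atp6v0d2, Slc4a1 or Car2), and the 250 bases before the start were read on both strands for TGTTTA and TGTTTG, which do not overlap each other here. All 250 bases were read in each of the 7 windows, including bases that lie in annotated exons, as in Atp6v0a4. TGTTTA was found in 1 of the 7 windows and in 12.0% of all 32851 windows of that length, and TGTTTG in 1 of the 7 and in 16.0% of all. The 2 windows that hold a match follow, 5′ to 3′ on the strand of the gene and cut at the first annotated exon base, with the match in capitals. TGTTTA begins 98 bases before the RefSeq start of Atp6v1b1, on the plus strand of chr6:83742767-83742989. The reverse complement of TGTTTG begins 66 bases before the start of Atp6v1g3, in chr1:138273488-138273737, also a plus strand gene. A match is a description of the letters, and no binding was measured here.
Atp6v1b1: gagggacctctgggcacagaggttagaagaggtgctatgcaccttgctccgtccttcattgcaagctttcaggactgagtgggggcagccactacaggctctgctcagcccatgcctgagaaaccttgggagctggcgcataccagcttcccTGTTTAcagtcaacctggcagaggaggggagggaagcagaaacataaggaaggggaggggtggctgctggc
Atp6v1g3: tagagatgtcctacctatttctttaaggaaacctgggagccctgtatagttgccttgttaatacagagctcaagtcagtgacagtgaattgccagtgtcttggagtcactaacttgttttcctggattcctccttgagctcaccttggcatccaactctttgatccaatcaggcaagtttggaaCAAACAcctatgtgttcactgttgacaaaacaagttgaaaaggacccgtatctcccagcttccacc

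All values below are normalized read counts, that is counts per gene after the authors' TMM scaling (trimmed mean of M-values). The values of a library summed to between 14242206 and 23182937 for males and between 16941020 and 20152078 for females. Female WT replicate 3 repeats female WT replicate 1 and was counted once, so the female WT group has n = 2 and the 12 samples give 11 distinct libraries. By their headers, the female WT libraries came from a different sequencing run than the female AS libraries, and the effects of run and genotype cannot be told apart there. Col4a5 itself was 1209, 1854 and 1426 in male WT against 727, 674 and 572 in male AS, and 2329 and 1752 in female WT against 1187, 1210 and 1330 in heterozygous female AS, lower in each AS library as labelled. The labelled tissue was present in every library, with summed podocyte markers (11 genes) of 155632 to 242519 in male WT, 342371 to 434896 in male AS, 298668 to 410676 in female WT and 263488 to 318592 in heterozygous female AS. The 10 acid-base genes together summed to 15287 to 22706 in male WT, 2427 to 11667 in male AS, 8922 to 16564 in female WT and 12230 to 13179 in heterozygous female AS. These sums do not overlap between the male groups and overlap between the female groups.

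Male AS glomeruli carried less RNA of the intercalated cell acid-base genes than male WT glomeruli. All 10 had a negative log2 fold change, from -2.18 for Slc4a1 to -1.21 for Atp6v1b1, and 6 of the 10 fell past an adjusted p of 0.05 in limma (Atp6v1g3, Atp6v0d2, Atp6v0a4, Slc4a1, Rhcg and Car2), where 18.9% of the 15881 genes tested fell. In 7 of the 10 every AS library lay below every WT library, which held for 27.2% of all genes tested. The 3 AS libraries differed widely among themselves, with replicate 2 lowest for every member and replicate 1 near the WT level for several.

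**Figure D1:**
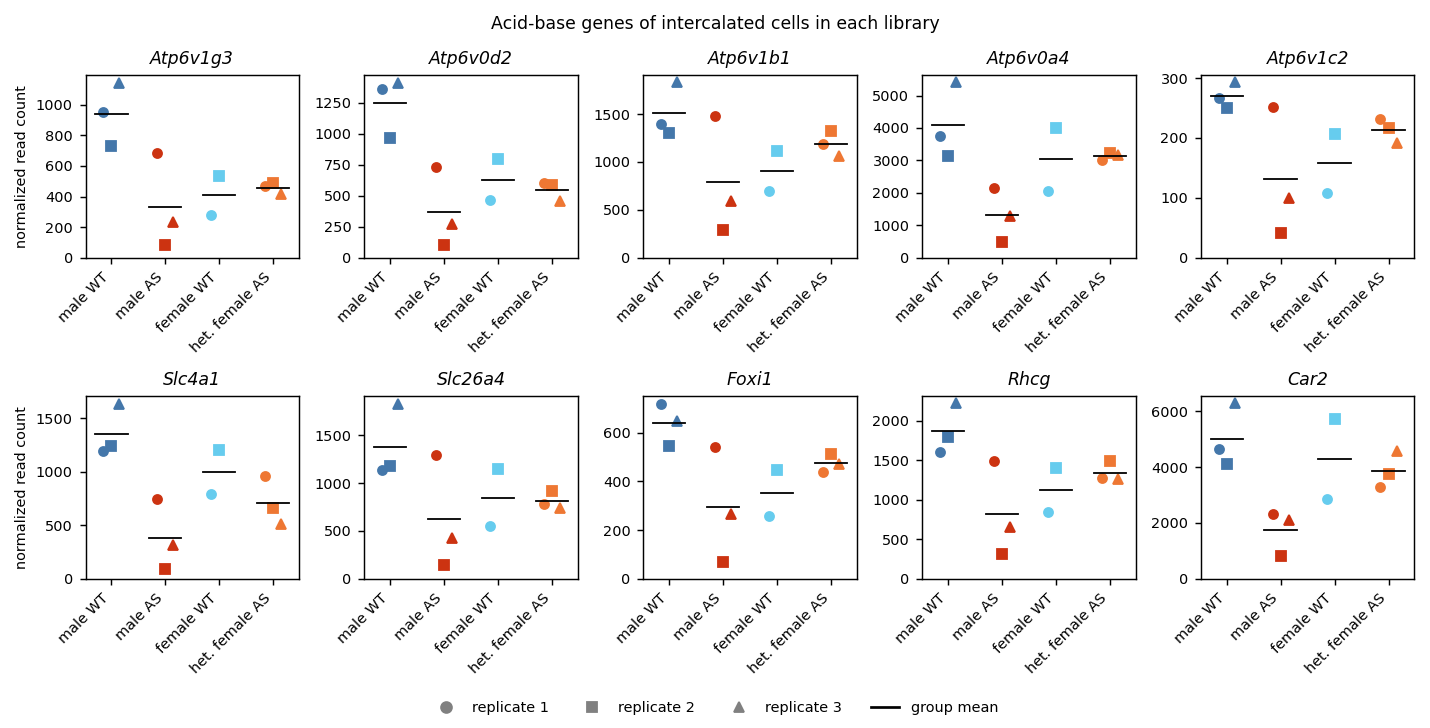
Normalized read count (vertical axis, from 0) of each of the 10 genes in the 11 distinct libraries, by group, with the marker shape giving the replicate and the line the group mean. Male AS replicate 2 is the lowest of all libraries for each gene, and all 3 heterozygous female AS libraries lie between the 2 female WT libraries for Atp6v1g3, Atp6v0a4, Slc26a4 and Car2 but not for the other 6 genes.

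Among the pump subunits, Atp6v0a4 encodes the a4 subunit of the membrane sector, an isoform of intercalated cells whose loss causes distal renal tubular acidosis in humans. Its normalized read count was 3758, 3150 and 5403 in male WT and 2141, 496 and 1278 in male AS. Every AS library was below every WT library, and the log2 fold change was -1.83 (SE 0.47, n = 3 and 3, limma adjusted p = 0.0219). Atp6v0d2, the d2 subunit of the same sector, read 1363, 965 and 1411 in male WT and 731, 99.2 and 275 in male AS. The groups did not overlap, with a log2 fold change of -2.08 (SE 0.57, limma adjusted p = 0.0271). Atp6v1g3, the kidney isoform of the G subunit of the peripheral stalk, read 952, 730 and 1145 in male WT and 684, 81.7 and 235 in male AS. The highest AS library came close to the lowest WT library without reaching it, and the log2 fold change was -1.86 (SE 0.60, limma adjusted p = 0.0454).

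The remaining pump subunits did not pass the test. Atp6v1b1 encodes the B1 subunit of the catalytic sector, likewise a gene of distal renal tubular acidosis in humans, and read 1396, 1307 and 1836 in male WT against 1483, 289 and 597 in male AS. AS replicate 1 lay within the WT range, and the log2 fold change was -1.21 (SE 0.49, limma adjusted p = 0.0897). Atp6v1c2, an isoform of the C subunit, read 267, 249 and 293 in male WT against 252, 40.5 and 100 in male AS. AS replicate 1 again lay within the WT range, with a log2 fold change of -1.23 (SE 0.48, limma adjusted p = 0.0767).

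The exchanger of type A cells gave the lowest log2 fold change of the 10. Slc4a1 read 1192, 1245 and 1635 in male WT and 744, 90.5 and 313 in male AS, and all AS libraries were below all WT libraries. The log2 fold change was -2.18 (SE 0.60, limma adjusted p = 0.0267), a 4.53-fold lower level. Red blood cells also express Slc4a1 as their band 3 protein. The 11 erythroid markers summed to 13561 to 21727 in male WT and 19334 to 26488 in male AS, nearly all of it globin, and of the 6 that were tested none fell and 1 rose (4 with equal column totals), while Rhag was at 0 in every male library and Car1 and Epb42 reached at most 1.23 and 12.1. The pendrin gene Slc26a4, of type B cells, read 1134, 1182 and 1830 in male WT and 1293, 141 and 428 in male AS. AS replicate 1 lay within the WT range, and the log2 fold change of -1.59 (SE 0.65) did not pass the test (limma adjusted p = 0.0895).

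Car2, the most abundant of the 10 by exon length, read 4637, 4123 and 6281 in male WT and 2305, 808 and 2104 in male AS. The groups were well apart and the log2 fold change was -1.63 (SE 0.38, limma adjusted p = 0.0158). Car2 is also expressed in proximal tubule and principal cells, so it is the least specific of the set. Rhcg read 1605, 1789 and 2221 in male WT and 1493, 312 and 652 in male AS. AS replicate 1 lay just under the lowest WT library, and the log2 fold change was -1.43 (SE 0.47, limma adjusted p = 0.0477). Foxi1 read 720, 546 and 650 in male WT and 542, 69.0 and 267 in male AS. Its groups touched without overlapping, and the log2 fold change of -1.44 (SE 0.58) did not pass the test (limma adjusted p = 0.0841).

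The number of members past the male test rested on single libraries. Without male WT replicate 1 or male WT replicate 3 it was 0 of 10 (5 and 4 at an unadjusted p under 0.05 in limma). Of all genes tested, 1593 of 15764 and 1432 of 15750 fell past the test in those fits. Without male AS replicate 3 it was 1, where 1489 of 15422 genes fell. Without male WT replicate 2 or male AS replicate 2 it was 4, where 3058 of 15723 and 1760 of 15398 genes fell. All 10 passed without male AS replicate 1, where 2989 of 15426 genes fell. When low values were not filtered out 1 member passed (Car2), where 2303 of 26234 genes fell. All 10 log2 fold changes stayed negative in each of these fits. With equal column totals 5 passed, where 1420 of 15881 genes fell. In that setting 4 of the 10 did not overlap between the groups, and the share over all genes is not given here.

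The spread within the male AS group was itself uneven between members. Male AS replicate 1 held 9.15 times as much Slc26a4 as replicate 2, 8.37 times as much Atp6v1g3 and 8.22 times as much Slc4a1, but 2.85 times as much Car2. In replicate 2 the 10 genes stood at 6.67% (Slc4a1) to 19.1% (Atp6v1b1) of the male WT mean, in replicate 3 at 22.1% (Atp6v0d2) to 42.0% (Car2), and in replicate 1 at 46.0% (Car2) to 98.0% (Atp6v1b1). Within male WT the highest library exceeded the lowest by 1.18 (Atp6v1c2) to 1.72 times (Atp6v0a4).

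Levels can be set beside each other only per length. In male WT the mean normalized read count per kb of annotated exon was 2070 for Car2, 839 for Rhcg and 825 for Atp6v0a4. Next came 499 for Atp6v1g3, 459 for Atp6v0d2 and 445 for Slc26a4, followed by 345 for Atp6v1b1, 277 for Slc4a1, 271 for Foxi1 and 124 for Atp6v1c2. Car2 lay above all the others and Atp6v1c2 below all the others in each male WT library. The levels of Rhcg and Atp6v0a4 overlapped between libraries, as did those of Atp6v1g3, Atp6v0d2 and Slc26a4 and those of Slc4a1 and Foxi1. Those of Atp6v1b1 overlapped with each gene of the last 2 groups. The ranges alone do not set the order among genes that overlap, but some kept their order in each male WT library. Atp6v1g3 lay above Atp6v0d2 and Slc26a4 in each. Atp6v1b1 lay below Atp6v1g3, Atp6v0d2 and Slc26a4 and above Slc4a1 and Foxi1 in each. The order of Rhcg and Atp6v0a4, of Atp6v0d2 and Slc26a4 and of Slc4a1 and Foxi1 changed between libraries.

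Every proton pump subunit of the set has a paralog or more that serves other tissues, and the paralogs had log2 fold changes nearer to 0. Atp6v1b2, the B2 subunit, read 3980, 4148 and 5845 in male WT and 2526, 1780 and 2598 in male AS, and fell by 1.01 on the log2 scale (SE 0.21, limma adjusted p = 0.0107). Atp6v0d1 fell by 0.70 (SE 0.11, limma adjusted p = 0.0066), Atp6v1c1 by 0.48 (SE 0.12, limma adjusted p = 0.0215) and Atp6v0a1 by 0.36 (SE 0.11, limma adjusted p = 0.0374). Atp6v1g1, Atp6v0a2, Tcirg1 and Atp6v1g2 did not pass the test, with log2 fold changes of -0.34, -0.12, -0.25 and 0.01. With equal column totals, which move the median of all genes by 0.36, none of these 8 paralogs passed in limma, with 1 of them at an unadjusted p under 0.05, and Atp6v0a1, Atp6v1g1, Atp6v0a2 and Tcirg1 had log2 fold changes above 0. The difference in fold change between a member and its paralog was not tested. Per kb of exon, the level of Atp6v0a4 was 2.91, 2.75 and 4.48 times that of Atp6v0a1 in male WT and 2.32, 0.49 and 1.43 times in male AS. The level of Atp6v1g3 was 0.33, 0.24 and 0.32 times that of Atp6v1g1 in male WT and 0.28, 0.04 and 0.09 times in male AS. Of these ratios, the lowest male WT value of Atp6v0a4 to Atp6v0a1 lay above all 3 male AS values, and so did not overlap, whereas that of Atp6v1g3 to Atp6v1g1 overlapped in AS replicate 1. Other pairs went the other way in that library. The ratio of Atp6v1b1 to Atp6v1b2 was 0.42, 0.38 and 0.38 in male WT and 0.71, 0.20 and 0.28 in male AS. That of Atp6v1c2 to Atp6v1c1 was 0.56, 0.61 and 0.58 in male WT and 0.73, 0.13 and 0.30 in male AS. For Atp6v0d2 to Atp6v0d1, AS replicate 1 (0.49) lay within the male WT range.

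**Figure D2:**
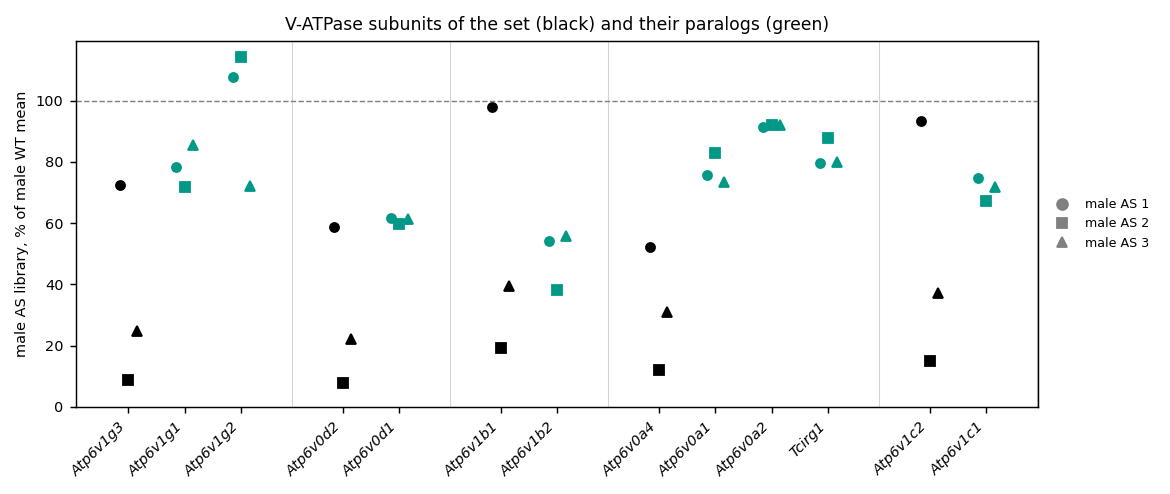
Normalized read count of each male AS library as a percentage of the male WT mean (vertical axis, from 0), for the 5 pump subunits of the set in black and for their paralogs in green, with the marker shape giving the replicate. The 3 libraries spread from 7.96% to 58.7% for Atp6v0d2 and from 19.1% to 98.0% for Atp6v1b1. They lie closer together for most paralogs, for example from 59.7% to 61.6% for Atp6v0d1, but spread from 72.1% to 114% for Atp6v1g2.

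Other subunits of the vacuolar ATPase were counted beside the set, with no test between the lists. Of 20 other subunits and accessory proteins 19 were tested in males, and 10 fell, 9 did not pass and none rose, with a median log2 fold change of -0.54 beside 0.00 over all genes tested. Apart from the paralogs, the largest changes were in Atp6v1a, the catalytic A subunit, which fell by 1.23 (SE 0.30, limma adjusted p = 0.0194), Atp6v0c, the proteolipid ring, which fell by 1.03 (SE 0.20, limma adjusted p = 0.0091), and Atp6v0b, which fell by 0.81 (SE 0.14, limma adjusted p = 0.0077). With equal column totals 2 of the 19 fell. The median over the 10 genes of the set was -1.61 as deposited and -1.21 with equal column totals.

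Of 16 other genes known from mouse intercalated cells 8 fell in males and 8 did not pass, and the median log2 fold change was -1.44. Aqp6, a water channel of type A cells, read 1802, 1160 and 1574 in male WT and 733, 79.4 and 286 in male AS, with a log2 fold change of -2.42 (SE 0.63, limma adjusted p = 0.0227). Oxgr1, the receptor for oxoglutarate, fell by 2.05 (SE 0.55, limma adjusted p = 0.0251), Hepacam2 by 1.99 (SE 0.57, limma adjusted p = 0.0298) and Car15 by 1.76 (SE 0.47, limma adjusted p = 0.0249). Slc26a7 had a log2 fold change above 0, at 327, 539 and 311 in male WT and 459, 436 and 425 in male AS, and did not pass the test.

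Families of the exchangers and of carbonic anhydrase were mixed. Of 9 further members of the SLC4 family 3 fell and 1 rose in males, led by Slc4a4, the sodium bicarbonate cotransporter of the proximal tubule, which fell by 2.32 (SE 0.41, limma adjusted p = 0.0079). Slc4a11 fell by 1.33, Slc4a8 by 0.87, and Slc4a7 rose by 0.60 on the log2 scale. Of 6 further SLC26 exchangers tested, Slc26a1 fell by 2.05 and Slc26a10 rose by 0.96 on the log2 scale. Of 11 other carbonic anhydrases tested, 6 fell and 1 rose, led by Car4, the membrane enzyme of the proximal tubule, which fell by 2.25 (SE 0.28, limma adjusted p = 0.004), Car15, Car14, which fell by 1.69, and Car12, which fell by 1.63. With equal column totals 2 of the SLC4 transporters fell and 2 rose, and 6 of the carbonic anhydrases fell and 2 rose. The relatives of Foxi1 and Rhcg gave a single tested gene, Rhbg, at a log2 fold change of -1.52 (SE 0.61, limma adjusted p = 0.084).

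Markers of other tubule segments moved with the acid-base genes. In males 7 of 9 principal cell markers fell (median log2 fold change -1.83), led by Aqp4, which fell by 3.88, Hsd11b2, Scnn1b and Aqp3. All 12 proximal tubule markers fell (median -2.11), led by Cubn, Slc27a2, Slc22a6 and Lrp2, as did 7 of 8 acid-base genes of the proximal tubule, including Pck1 and Slc9a3. Of 10 thick limb and distal convoluted tubule markers 3 fell, namely Ptger3, Calb1 and Trpm6 (median -0.82). On the glomerular side 7 of 11 podocyte markers rose (median 0.97), led by Nphs1, Cdkn1c, Npnt and Synpo, and so did 7 of 9 endothelial markers (median 1.03), led by Tek, Ptprb, Ehd3 and Cd34, while 1 of 5 mesangial markers rose (Itga8, by 0.84). With equal column totals 11 of 11 podocyte, 8 of 9 endothelial and 4 of 5 mesangial markers rose, and 7 of 9 principal cell, 12 of 12 proximal tubule and 2 of 10 thick limb and distal convoluted tubule markers fell. In that setting 5292 of all 15881 genes tested rose and 1420 fell, and as deposited 2638 rose and 3003 fell. The part of these cell types in the change of the acid-base genes was not tested.

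The tubule markers did not follow the acid-base genes in every library. Relative to the mean of male WT on the log2 scale, the mean of the 10 genes stood at -0.47 in male AS replicate 1, -2.90 in replicate 2 and -1.58 in replicate 3. Proximal tubule markers stood at -1.76, -2.91 and -1.72 and principal cell markers at -0.89, -3.03 and -1.97 in the same libraries. Thick limb and distal convoluted tubule markers stood at 0.01, -1.62 and -0.98, and podocyte markers at 0.79, 1.14 and 0.90. In AS replicate 1 the acid-base genes thus lay nearer to WT than the proximal tubule markers did, and in replicates 2 and 3 the 2 lists lay at nearly the same distance. Atp6v0d2 is a gene of macrophages and osteoclasts as well, and the 8 markers of these cells summed to 707 to 828 in male WT and 483 to 631 in male AS. Of the 6 tested, Acp5 fell by 1.57, C1qb fell by 0.51 and Ctsk rose by 0.94 on the log2 scale.

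**Figure D3:**
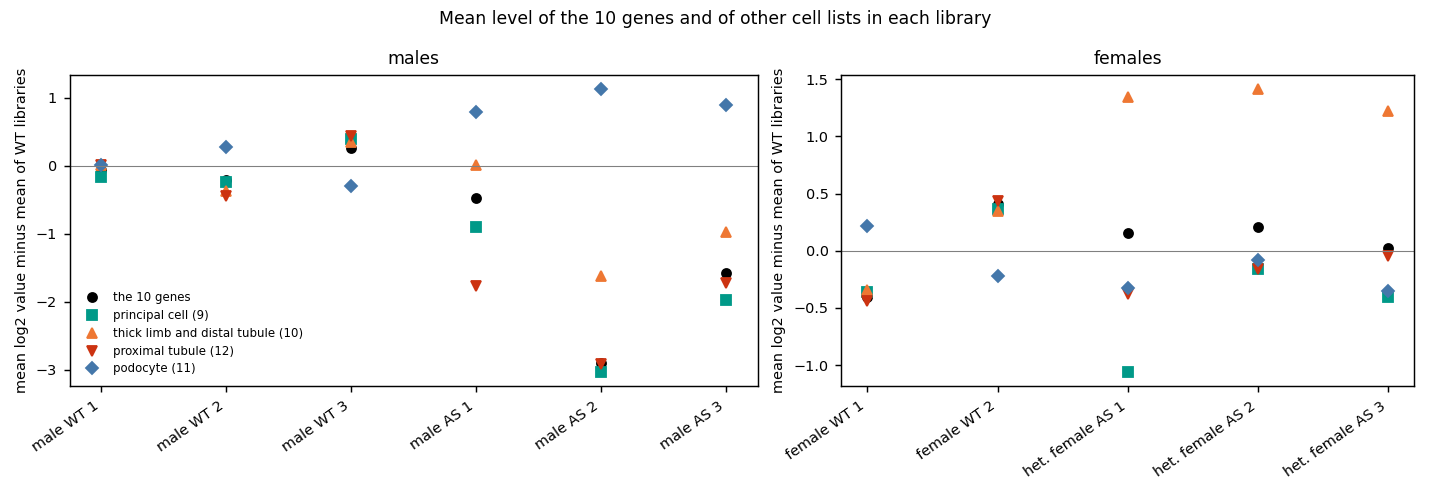
Mean log2 value of the 10 genes and of 4 marker lists in each library, minus the mean of the WT libraries of the same sex (vertical axis), with males on the left and females on the right and the number of genes of a list in brackets. Male AS replicate 1 stands at -0.47 for the 10 genes and -1.76 for the proximal tubule, and the heterozygous female AS libraries stand at 1.22 to 1.42 for the thick limb and distal tubule.

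Heterozygous female AS glomeruli showed no change of these genes past the test. None of the 10 passed in limma at an adjusted p of 0.05 and none had an unadjusted p under 0.05, where 1.40% of the 15803 genes tested passed in either direction. Log2 fold changes ran from -0.50 for Slc4a1 to 0.46 for Foxi1 and were above 0 for 7 of the 10. No member had all AS libraries on one side of both WT libraries, which 40.4% of the genes tested had.

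For 9 of the 10 genes, all but Slc4a1, the female WT libraries differed by a larger factor than the highest and lowest female AS libraries. Foxi1 read 258 and 447 in female WT and 438, 514 and 473 in heterozygous female AS. The log2 fold change was 0.46 (SE 0.22, n = 2 and 3, limma adjusted p = 0.279), with a 95% confidence interval of -0.06 to 0.98. Slc4a1 read 795 and 1205 in female WT and 959, 665 and 511 in heterozygous female AS, and its log2 fold change was -0.50 (SE 0.28, limma adjusted p = 0.341, interval -1.16 to 0.16). AS replicate 1 lay between the WT libraries and the other two lay below both.

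For the pump subunits in females, Atp6v1b1 read 695 and 1114 in WT and 1184, 1319 and 1062 in heterozygous AS. Atp6v1c2 read 109 and 207 in WT and 232, 217 and 192 in AS, and Atp6v1g3 281 and 533 in WT and 472, 487 and 414 in AS. In each of these the AS libraries lay near or above the higher WT library or between the WT libraries. Atp6v0a4 read 2057 and 4002 in WT and 3014, 3227 and 3163 in AS, and Atp6v0d2 read 466 and 792 in WT and 604, 587 and 456 in AS. Both were spread more widely in WT than in AS. The 5 log2 fold changes were 0.42, 0.45, 0.23, 0.13 and -0.15 in this order, with limma adjusted p from 0.283 to 0.813.

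Among the remaining genes in females, Slc26a4 read 550 and 1148 in WT and 787, 918 and 741 in AS, Rhcg 842 and 1406 in WT and 1270, 1495 and 1258 in AS, and Car2 2870 and 5710 in WT and 3271, 3751 and 4576 in AS. All AS values of Slc26a4 and Car2 lay between the WT values, and the log2 fold changes were 0.03, 0.29 and -0.08. Female WT replicate 2 held 1.51 (Slc4a1) to 2.09 (Slc26a4) times as much of each member as replicate 1. Leaving out either replicate leaves 1 WT library, so only effect sizes are given. Without replicate 2 the log2 fold changes ran from -0.20 to 0.87, with a median of 0.63, and 1 of the 10 was below 0. Without replicate 1 they ran from -0.79 to 0.09, with a median of -0.28, and 7 of the 10 were below 0.

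**Figure D4:**
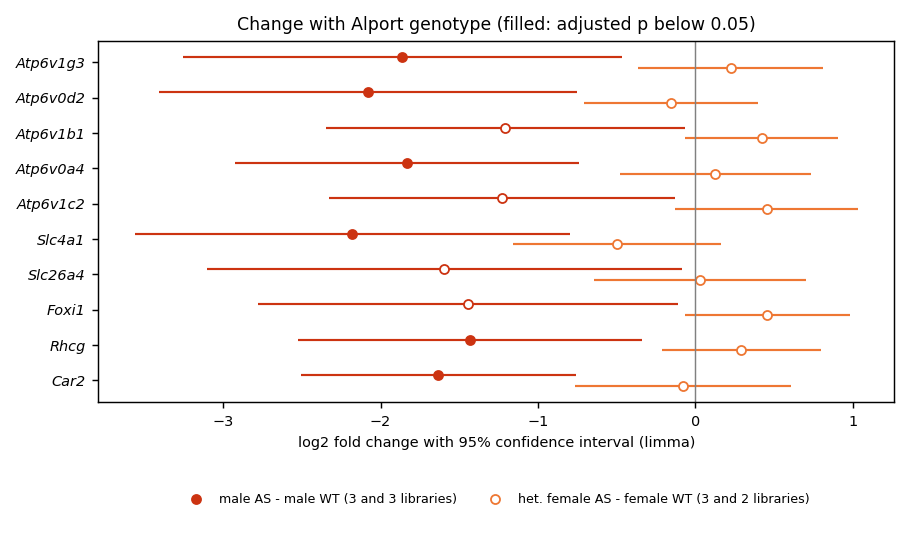
Log2 fold change of each gene with its 95% confidence interval from limma (horizontal axis), for male AS against male WT in red and for heterozygous female AS against female WT in orange, with filled points where the adjusted p was below 0.05. All 10 male intervals lie below 0, of which 6 points are filled, and all 10 female intervals include 0.

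Other lists moved differently in females. Thick limb and distal convoluted tubule markers were higher in heterozygous female AS, with 5 of 10 past the test (Umod, Kcnj1, Slc12a3, Pvalb and Trpm6) and a median log2 fold change of 1.46, beside 0.18 for the 10 acid-base genes and -0.01 for all genes tested. Of 9 principal cell markers 1 fell (Aqp4, by 1.55), with a median of -0.39. None of the 12 proximal tubule markers, 11 podocyte markers or 9 endothelial markers passed in limma, of which 0, 1 and 2 had an unadjusted p under 0.05. The mean of the 10 genes relative to female WT stood at 0.15, 0.21 and 0.02 in the AS libraries and at -0.41 and 0.41 in the WT libraries. Erythroid markers summed to 16897 to 17693 in female WT and 10003 to 25896 in heterozygous female AS, beside the values of Slc4a1.

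Male AS mice were Col4a5-/- and female AS mice heterozygous, so sex and genotype cannot be told apart in what follows. The difference between the male and the female effect was tested as an interaction. It was negative for all 10 genes, from -2.09 for Atp6v1g3 to -1.55 for Car2, and passed for 1 of the 10, where 12.8% of the 15492 genes tested passed in that direction. That gene was Atp6v0a4, at -1.96 (SE 0.65, limma adjusted p = 0.0495). With equal column totals, with median-of-ratios scaling, with a pseudocount of 0.25 CPM or with no filter its adjusted p was above the threshold and 0 of 10 passed, with 8 of 10 at an unadjusted p under 0.05 each time. For the others the adjusted p ran from 0.0632 (Car2) to 0.192 (Slc26a4), so that a male effect past its threshold and a female one short of it do not show a difference for them.

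The balance between type A and type B genes was examined after the values had been seen, as a description with no test. The ratio of Slc4a1 to Slc26a4 was 1.05, 1.05 and 0.89 in male WT and 0.58, 0.64 and 0.73 in male AS. It was 1.45 and 1.05 in female WT and 1.22, 0.72 and 0.69 in heterozygous female AS. The male groups did not overlap and the female groups did, through AS replicate 1. The ratio of Aqp6, of type A cells, to Slc4a9, an exchanger of type B cells, was 3.59, 2.51 and 1.94 in male WT and 1.12, 1.25 and 1.64 in male AS. In females it was 3.34 and 2.39 in WT and 2.54, 1.36 and 1.36 in AS, so the same libraries were low. In male AS replicate 1, Slc26a4 stood at 93.5% of the male WT mean, and Slc4a9, Insrr and Hmx2, genes of type B or related cells, at 110%, 97.7% and 87.1%. Slc4a1 and Aqp6 stood at 54.8% and 48.5%. Not every gene followed this split. Oxgr1, of type B cells, stood at 54.9%, and Kit, Dmrt2 and Slc26a7, described in type A cells, at 81.2%, 92.6% and 117%.

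**Figure D5:**
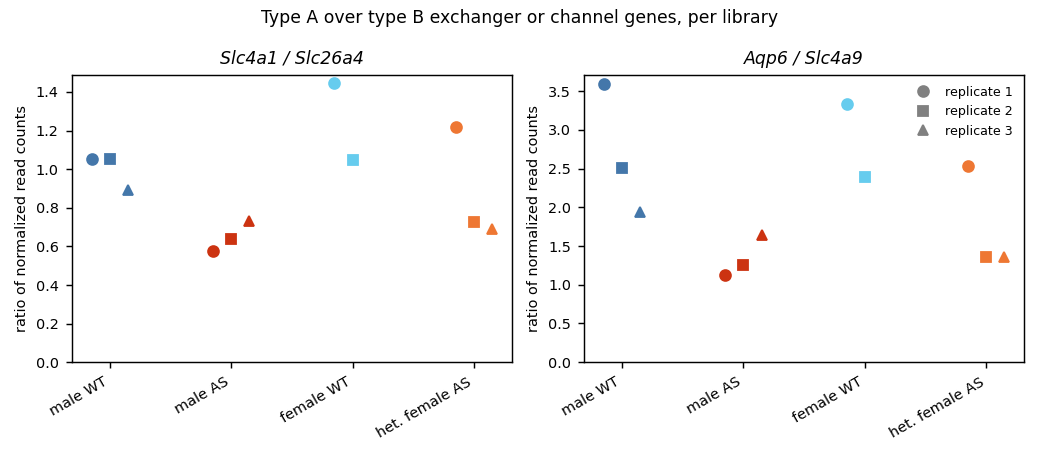
Ratio of normalized read counts of Slc4a1 to Slc26a4 and of Aqp6 to Slc4a9 (vertical axes, from 0) in each library, by group, with the marker shape giving the replicate. The 3 male AS libraries lie at 0.58 to 0.73 and 1.12 to 1.64, below the male WT libraries at 0.89 to 1.05 and 1.94 to 3.59.

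The 10 genes outside the set whose pattern was most like its mean were found by Pearson r of log2 values centred within each sex over the 11 distinct libraries. They were Akr1c19 (r = 0.99), Scnn1g, Tmem117, Elovl6, Scnn1b, Oxgr1, Tmem30b, Slc35g1, Hepacam2 and Malrd1 (r = 0.98). Scnn1g and Scnn1b encode subunits of the epithelial sodium channel of principal cells, and Oxgr1 and Hepacam2 are among the intercalated cell genes above. All these correlations come from the same 11 libraries, in which markers of other tubule segments also moved, and in the female libraries alone r ran from 0.72 (Hepacam2) to 0.96 (Scnn1g). In males, Scnn1g read 1240, 1142 and 1565 in WT and 877, 148 and 327 in AS, with replicate 2 again lowest and replicate 1 nearest to WT.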

How the data were processed

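Glomerular polyA RNA of 12 samples was sequenced with a stranded mRNA kit. Per the submitters' processing notes and the study's methods, the authors checked reads with FastQC, trimmed them with cutadapt, aligned them with STAR to mm10 and counted and scaled them in Partek. The versions and the strand setting of the counting are not given in the sources used here. The deposited values are a signal per gene, estimated read counts after TMM scaling that are no longer whole numbers, so depth is unknown, no counting interval could be given and no count model was used. Whether each sex was scaled apart is not stated.

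Values below 1e-06 were taken as 0. Female WT replicate 3 equalled replicate 1 within a relative tolerance of 0.005 and was counted once. Genes with at least 0.5 CPM (of the column total) in 3 libraries were tested on log2(value + 1 CPM) with limma (version 3.58.1, R version 4.3.3), a pseudocount of 17.6 in males and 17.8 in females, which understates changes of low genes. Tests were two-sided, with Benjamini-Hochberg adjustment over all genes tested, and each sex was fitted apart. The difference between the sexes was the interaction in a fit of all 11 libraries. The alternatives were equal column totals, median-of-ratios scaling, quantile normalization, pseudocounts of 0.25 and 4 CPM, no filter or 2 CPM, a replicate block, the repeated library kept, and each library left out in turn. The fitting procedure was tested on simulated data.

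The series describes its replicates as biological without naming the animals, so p-values measure the spread between these samples only. An exact two-sided permutation test of 3 against 3 libraries cannot go below 0.1, nor one of 2 against 3 below 0.2, so none was used. Named are all members, the paralogs of the pump subunits, up to 4 genes of each list with the largest change among those past the male test, and the 10 genes most alike in pattern with a mean of at least 5 CPM. Other names were chosen after their values were seen, and some listed genes are not reported here. The members and lists were chosen with earlier results of these data known. Positions and exon lengths came from GENCODE M21 and promoter windows from RefSeq.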

Additional observations from a re-analysis of the deposited data

Results flagged for a closer look

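Of the 10 acid-base genes 1 passed the interaction test, where 12.8% of the 15492 genes tested passed in that direction. That gene was Atp6v0a4, whose male and female effects differed by -1.96 on the log2 scale (SE 0.65, limma adjusted p = 0.0495). The adjusted p lay just under the threshold of 0.05, and 1 of 10 is near the share over all genes. It was lower in 3 of 3 male AS libraries than in every male WT library, whereas all 3 heterozygous female AS libraries lay between the 2 female WT libraries. Over its alternatives with all libraries the adjusted p ran from 0.0185 to 0.0814, and with 1 library left out from 0.0126 to 0.241. The female part of this difference rests on 2 WT libraries from another sequencing run than the AS libraries. Sex and genotype, Col4a5-/- or heterozygous, cannot be told apart in it.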

How the results depend on the processing

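All 10 male log2 fold changes stayed negative under every scaling, pseudocount, filter and left-out library and with the replicate block, but the number past the test did not hold. It was 6 of 10 as reported, 1 with no filter, 10 with the replicate block and 0 to 10 when 1 library was left out. Members whose male groups did not overlap numbered 7, where 27.2% of all genes tested had every AS library below every WT library. With equal column totals they numbered 4, and the share over all genes in that setting is not given here. Leaving a library out cannot make groups overlap that were apart, so it is no check of this number. Over all genes the male test called 5641, and 2488 to 5878 with 1 library left out. Equal column totals turned the split from 2638 higher and 3003 lower to 5292 higher and 1420 lower. In females 0 members passed, also with any 1 AS library left out. Fits without a WT library leave 1 WT library, so only effect sizes of the members are given for them. The log2 fold changes ran from -0.20 to 0.87 without WT replicate 2 and from -0.79 to 0.09 without WT replicate 1, so the female result depends on the WT library used. All genes called in females numbered 222, against 674 with equal column totals, 134 with quantile normalization, 8 with no filter, 147 at 2 CPM, 881 with the replicate block, 2517 with the repeated library kept, and 4 to 1805 with 1 library left out. Some female log2 fold changes changed sign. With 1 library left out they ran from -0.22 to 0.67 for Atp6v1g3, -0.53 to 0.22 for Atp6v0d2, -0.35 to 0.60 for Atp6v0a4, -0.49 to 0.55 for Slc26a4, -0.072 to 0.66 for Rhcg and -0.57 to 0.41 for Car2, each lowest without WT replicate 1 and highest without WT replicate 2. Slc26a4 was also below 0 without AS replicate 2. Car2 was above 0 without AS replicate 1, at 0.072 with equal column totals, at 0.10 with quantile normalization and at 0.084 with the repeated library kept. For the difference between the sexes, 1 member passed, 0 with equal column totals, median-of-ratios scaling, 0.25 CPM or no filter, 5 with the replicate block, 8 with the repeated library kept and 0 to 10 with 1 library left out. All genes past that test numbered 3602, 2021 with no filter, 5722 with the repeated library kept and 0 to 4841 with 1 library left out, the 0 being without female WT replicate 1 (3638 at an unadjusted p under 0.05 in limma). Same-numbered libraries deviated together with r of 0.05, 0.52 and 0.06 in males and 0.26 and -0.05 in females, so the numbers were not taken to pair the samples. Beyond smaller samples, the causes of these changes were not tested. With 2 female WT libraries the female intervals are wide, and effects inside them could go undetected.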

Other observations

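Bsnd and Slc26a7, chosen after their values were seen, had an effect in males that differed from that in females by the interaction test. Of all 15492 genes tested 3602 passed it. Among the 16 other intercalated cell genes 4 passed with a negative difference and 1 with a positive one. The female part rests on 2 WT libraries from another sequencing run than the AS libraries, and sex and genotype cannot be told apart here. Bsnd, which encodes barttin, read 287 and 662 in female WT and 997, 890 and 890 in heterozygous female AS, with a log2 fold change of 1.05 (SE 0.30, limma adjusted p = 0.119). Every AS library lay above both WT libraries without passing the test. In males Bsnd fell by 1.45 on the log2 scale (SE 0.40, limma adjusted p = 0.0267). Its effects differed between Col4a5-/- males and heterozygous females by -2.50 (SE 0.59, limma adjusted p = 0.0233).

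Slc26a7, an anion exchanger described at the basolateral membrane of type A cells, had a difference of the opposite sign. It read 665 and 454 in female WT and 224, 311 and 329 in heterozygous female AS, and its log2 fold change of -0.91 (SE 0.22) did not pass the test (limma adjusted p = 0.0883). Every female AS library lay below both WT libraries, whereas the male groups overlapped with a log2 fold change of 0.20. The difference between Col4a5-/- males and heterozygous females was 1.11 (SE 0.33, limma adjusted p = 0.0359). Tmem213, whose span overlaps that of Atp6v0a4 on the opposite strand, read 250 and 464 in female WT and 841, 825 and 753 in heterozygous female AS, while Atp6v0a4 read 2057 and 4002 in female WT and 3014, 3227 and 3163 in heterozygous female AS. In males Tmem213 read 686, 733 and 1046 in WT and 923, 275 and 442 in AS, and the groups overlapped.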
